A study of Mus musculus with 22 samples.

Results

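Visceral endoderm, the outer epithelium of the early mouse embryo, makes many of the plasma proteins that the fetal liver later produces. The 9 genes described here encode such secreted proteins: alpha-fetoprotein (Afp), transthyretin (Ttr), transferrin (Trf), the apolipoproteins Apoa1, Apoa4, Apob, Apoe and Apom, and retinol binding protein (Rbp4). They were taken by symbol from the deposited count table, and all 9 were found among its 55367 symbols. As background, transferrin carries iron, Rbp4 carries retinol in a complex with transthyretin, and the apolipoproteins form and direct the lipid particles that the yolk sac exports. Primitive endoderm, the precursor of visceral and parietal endoderm, is the state that the stem cell lines of the study were derived in or pushed towards.

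RNA-seq of 22 mouse cell libraries in 10 groups asked how EZH2, the methyltransferase of the Polycomb repressive complex PRC2, separates pluripotent from primitive endoderm (PrE) identity. Wild-type PrE stem cells of line C57 in PrE stem cell culture (C57_PrESC, n = 2) stood against wild-type C57 embryonic stem cells (ESCs) in medium with LIF (C57_ESC, n = 2). A pair of PrE lines induced from wild-type E14 ESCs with EPZ-6438, an EZH2 inhibitor, and kept in PrE stem cell culture (EPZ_iPrE2 and EPZ_iPrE1, n = 2 each) stood against wild-type E14 ESCs with LIF, titled TG2A.NG.PB.ESC (TG2A_ESC below, n = 2). Ezh2-null E14 ESCs of knockout clone 10 were grown with LIF (KO10_SL, n = 3) and stood against a wild-type E14 set with LIF (E14_ESC, n = 3). The same clone with Ezh2 put back (KO10_SL_rescued, n = 2) stood against KO10_SL. Knockout and TG2A.NG.PB cells were also grown with LIF and 2i, a pair of kinase inhibitors that hold ESCs in the naive state (KO10_S2iL and TG2A_S2iL, n = 2 each). Each PrE line and the knockout clone is a single derivation, nothing in the labels says that replicates were separate cultures, and whether EPZ-6438 was present at harvest is not given. The p-values therefore measure the spread between libraries, pooled over the 10 groups, which may be technical. That spread was uneven. The mean chi-square per gene between replicates was 20.33 to 54.18 in the C57, EPZ and TG2A_ESC groups, and 2.12 to 15.71 in the others. A p-value can thus be too small for the former groups and too large for the latter.

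Ezh2 had 8932 to 9943 estimated counts per library in KO10_SL_rescued, 1 to 2 in KO10_SL and 0 to 6 in KO10_S2iL, against 2894 to 4941 in E14_ESC. Library totals ran from 13586043 to 26280949 estimated counts. In 19 of the 22 libraries the nearest library by correlation was one of the same group. The exceptions were both EPZ_iPrE1 libraries, each nearest to an EPZ_iPrE2 library, and TG2A_ESC replicate 1, nearest to E14_ESC replicate 3. Levels are given as CPM, the usual count unit relative to the scaled library size. The summed level of 14 fibroblast genes was uneven within groups, at 32.0 and 2399.6 CPM in the C57_PrESC replicates, 29.2 and 454.0 in C57_ESC, 77.9 and 390.6 in EPZ_iPrE2, and 236.8 and 37.5 in EPZ_iPrE1, against 13.6 to 88.0 CPM in the other groups. In the 6 PrE libraries 0 or 1 of the 14 were at 0, in C57_ESC 3 and 0, and in the others 4 to 9. Macrophage genes, 13 in the list, summed to 62.3 and 191.2 CPM in C57_PrESC, against 17.4 and 21.2 CPM in C57_ESC, with 6 and 0 of the 13 at 0 in C57_PrESC and 8 and 4 in C57_ESC. Their part in the results below was not tested, and values without the fibroblast-high library of each of the 4 groups are given where they end a call or move a value by over 1.5 times.

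Promoter sequences are shown for a gene near silence in every group (Afp), for a pair of genes lower in PrE cells and higher in knockout ESCs (Apob and Rbp4), and for the gene that dominates the set (Apoe). Each is the 250 bases before the RefSeq start on GRCm38.p6, written 5′ to 3′ on the strand of the gene, and capitals mark words searched for on both strands. GATA factors were searched for as AGATAA, as the word AGATAG, as the word TGATAA and as the word TGATAG. The words for HNF4 were CAAAGTCCA and also CAAAGTTCA, those for FOXA factors were TGTTTAC and also TGTTTGC, and GTTAAT stood for a half-site of HNF1.
Afp, chr5:90490464-90490713, plus strand: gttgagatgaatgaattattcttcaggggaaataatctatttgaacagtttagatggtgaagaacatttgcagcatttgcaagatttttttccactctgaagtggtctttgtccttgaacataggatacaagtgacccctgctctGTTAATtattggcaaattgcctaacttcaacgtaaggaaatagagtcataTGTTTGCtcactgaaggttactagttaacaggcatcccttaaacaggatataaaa
Apob, chr12:7977427-7977676, plus strand: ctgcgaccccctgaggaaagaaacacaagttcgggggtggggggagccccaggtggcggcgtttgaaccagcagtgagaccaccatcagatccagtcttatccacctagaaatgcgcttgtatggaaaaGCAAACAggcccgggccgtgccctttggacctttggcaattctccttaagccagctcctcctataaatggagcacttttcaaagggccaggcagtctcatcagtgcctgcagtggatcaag
Rbp4, chr19:38125322-38125571, minus strand: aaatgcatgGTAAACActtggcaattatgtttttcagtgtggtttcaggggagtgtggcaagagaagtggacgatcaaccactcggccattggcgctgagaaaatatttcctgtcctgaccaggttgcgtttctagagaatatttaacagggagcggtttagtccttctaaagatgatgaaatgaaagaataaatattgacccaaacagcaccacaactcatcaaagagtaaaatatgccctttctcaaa
Apoe, chr7:19699189-19699438, minus strand: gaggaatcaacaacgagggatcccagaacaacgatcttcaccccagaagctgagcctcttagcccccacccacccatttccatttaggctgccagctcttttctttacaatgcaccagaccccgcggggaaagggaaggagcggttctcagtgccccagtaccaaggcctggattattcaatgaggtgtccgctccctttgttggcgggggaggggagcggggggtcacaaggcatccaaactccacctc

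Afp held the HNF1 half-site at -105 and the FOXA word TGTTTGC at -55, counted from the start. Apob held a FOXA word on the opposite strand at -121, and Rbp4 one on the opposite strand at -241. Apoe held none of the words. Of the 9 genes, 7 matched a window, and Trf and Ttr did not. Of the other windows, that of Apoa1 held 1 GATA word and 2 FOXA words, that of Apoa4 held 1 HNF4 word and that of Apom held none. Of 32851 windows of the same length, 26.5% held a GATA word, 0.715% an HNF4 word, 7.29% a FOXA word and 6.43% the HNF1 half-site. A match is a string of letters and not a measured binding site.

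Levels within the set spanned several orders of magnitude, and 1 gene made up nearly all of it. Apoe took 97.7% of the summed CPM of the 9 genes over the 22 libraries, and its group means ran from 122.8 CPM in KO10_SL_rescued to 1525.0 CPM in EPZ_iPrE2. Per kilobase of annotated exons, Apoe averaged 713.3 CPM per kb in EPZ_iPrE2, where Apom followed at 6.45, Apoa4 at 0.296, Ttr at 0.140 and Apoa1 at 0.0556 CPM per kb. In KO10_SL the order after Apoe, at 124.6 CPM per kb, was Rbp4 at 5.23, Trf at 2.91, Apom at 1.19, Ttr at 0.369 and Apob at 0.240 CPM per kb. Trf, Apob, Apoe, Apom and Rbp4 passed the filter on low counts and were tested. Afp with 28 counts over all libraries, Ttr with 41, Apoa1 with 56 and Apoa4 with 36 did not. None of the 9 genes had fractional counts, which does not show how reads shared with overlapping genes were assigned.

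In the PrE lines, the iron carrier and the retinol carrier were nearly off, Apob was low or absent, and the EPZ-derived lines had the highest group means of Apoe and Apom. Relative to their ESCs, Trf, Rbp4 and Apob fell in all 3 lines, Apom rose in both EPZ-derived lines, and Apoe rose in EPZ_iPrE2. Afp and Ttr, which define visceral endoderm, were at or near 0 in these lines, and the 9 genes had no common direction. Among the 5 tested genes, EPZ_iPrE2 had 2 higher and 3 lower than TG2A_ESC at an adjusted p below 0.05, where 62.2% of all 17547 tested genes passed in either direction, 28.8% higher and 33.4% lower. In EPZ_iPrE1 against the same TG2A_ESC libraries 1 was higher and 3 lower, where 60.1% of all genes passed, 27.9% higher and 32.2% lower. In C57_PrESC against C57_ESC none was higher and 3 were lower, where 60.6% of all genes passed, 27.3% higher and 33.4% lower. The median log2 change of the 5 genes was -1.98, -2.88 and -3.92 in these comparisons, beside -0.109, -0.075 and -0.091 over all genes tested. In the bulk libraries, fewer cells that express a gene and less RNA per cell cannot be told apart.

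**Figure D1:**
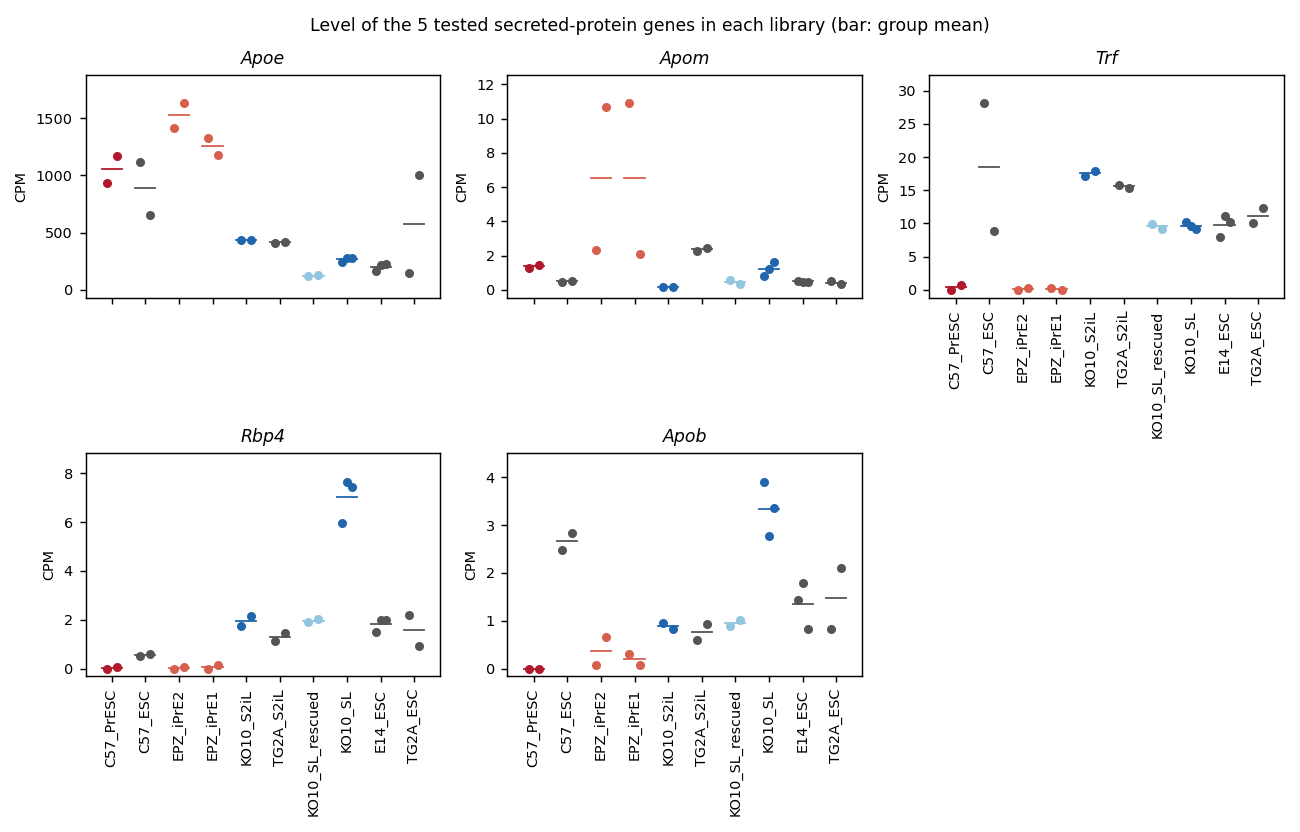
CPM of the 5 tested genes (vertical axis, scaled library sizes) in each of the 22 libraries by group (horizontal axis). Points are libraries and bars are group means, dark red for C57_PrESC, light red for EPZ-derived lines, blue for knockout, light blue for rescued and grey for wild-type ESCs. Trf lies between 0 and 0.698 CPM in the PrE lines, and Apom is high in 1 library of each EPZ-derived line.

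Trf, whose product delivers iron through the transferrin receptor, had 0 and 0.197 CPM in EPZ_iPrE2 and 0.230 and 0 CPM in EPZ_iPrE1, against 10 and 12.4 CPM in TG2A_ESC. C57_PrESC had 0 and 0.698 CPM, against 28.1 and 8.93 CPM in C57_ESC. Every PrE library was below every ESC library of the series. Both EPZ groups rest on 3 counts each, so the ratio to TG2A_ESC is given with its exact 95% counting interval. It was 0.009 (0.00185 to 0.0265) for EPZ_iPrE2 and 0.0104 (0.00213 to 0.0305) for EPZ_iPrE1, with edgeR adjusted p of 4.67e-06 and 7.17e-06. Such intervals cover counting error only. In C57_PrESC the log2 change was -5.62 (SE 0.717, edgeR adjusted p = 3.99e-06). The counts of C57_PrESC lay in replicate 2, the one high in fibroblast genes, and those of the EPZ lines in EPZ_iPrE2 replicate 2 and EPZ_iPrE1 replicate 1, also high in them. Without those libraries every remaining PrE library was at 0 for Trf.

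Rbp4 brings retinol to cells that carry its receptor Stra6. It had 0 and 0.0658 CPM in EPZ_iPrE2 and 0 and 0.156 CPM in EPZ_iPrE1, against 2.19 and 0.943 CPM in TG2A_ESC. The ratio to TG2A_ESC was 0.0214 (95% counting interval 0.000534 to 0.124) in EPZ_iPrE2 and 0.0494 (0.00585 to 0.186) in EPZ_iPrE1, with edgeR adjusted p of 2.84e-05 and 0.000108. In C57_PrESC it had 0 and 0.0582 CPM, against 0.530 and 0.606 CPM in C57_ESC, a ratio of 0.055 (0.00133 to 0.34) with an edgeR adjusted p of 0.00119. These PrE groups held 1, 2 and 1 counts, and the highest PrE library stayed below the lowest ESC library. Without the libraries high in fibroblast genes, the remaining EPZ_iPrE2 and C57_PrESC libraries were at 0, with fitted log2 changes of -7.89 (adjusted p = 0.000121) and -6.36 (adjusted p = 0.00752) that are no measure of size. In EPZ_iPrE1 the change was then -3.26 (adjusted p = 0.00172), against -4.22 with all libraries.

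Apob, the structural protein of the large lipid particles, had no count in either C57_PrESC library, against 2.49 and 2.83 CPM in C57_ESC. Set against 3 counts over the group, it was at least 28.4-fold lower in C57_PrESC (edgeR adjusted p = 2.06e-05). In the EPZ-derived lines it stayed detectable, with 0.0687 and 0.658 CPM in EPZ_iPrE2 and 0.307 and 0.0780 CPM in EPZ_iPrE1, against 0.833 and 2.10 CPM in TG2A_ESC. The log2 change was -1.98 (SE 0.69, edgeR adjusted p = 0.0207) in EPZ_iPrE2 and -2.88 (SE 0.777, edgeR adjusted p = 0.00458) in EPZ_iPrE1. The call in EPZ_iPrE2 was lost without EPZ_iPrE2 replicate 1 (-1.15, adjusted p = 0.174) or without TG2A_ESC replicate 2 (-1.16, adjusted p = 0.236), and it stood at -4.29 without EPZ_iPrE2 replicate 2. Fitted to the compared groups alone it did not pass either (-1.97, adjusted p = 0.0984). Without the libraries high in fibroblast genes the changes were -4.27 in EPZ_iPrE2 (adjusted p = 0.00205) and -4.11 in EPZ_iPrE1 (adjusted p = 0.00311). The call in EPZ_iPrE1 was lost without EPZ_iPrE1 replicate 2 (-2.22, adjusted p = 0.0578) or without TG2A_ESC replicate 2 (-2.05, adjusted p = 0.0619). The mean change of the EPZ lines less the C57 change was 6.20 (SE 1.69, edgeR adjusted p = 0.00948), a fitted value that depends on the group at 0. Apob was the 1 of 5 tested genes called in this difference, where 35.1% of all genes passed. The call was lost with the compared groups alone (6.05, adjusted p = 0.0804) and without the libraries high in fibroblast genes (4.38, adjusted p = 0.282).

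Apoe, the ligand by which lipid particles are taken up through the low density lipoprotein receptor family, had 1414.6 and 1635.4 CPM in EPZ_iPrE2 and 1324.7 and 1182.7 CPM in EPZ_iPrE1. The TG2A_ESC replicates lay far apart, at 144.3 and 1006.7 CPM. All 4 EPZ libraries were above both. The log2 change was 1.41 (SE 0.506, edgeR adjusted p = 0.0232) in EPZ_iPrE2 and 1.12 (SE 0.502, edgeR adjusted p = 0.0635) in EPZ_iPrE1. The size rests on the choice of control: without TG2A_ESC replicate 2 it was 3.41 in EPZ_iPrE2 and 3.14 in EPZ_iPrE1, and without replicate 1 it was 0.62 (adjusted p = 0.0519) in EPZ_iPrE2 and 0.35 in EPZ_iPrE1. Without EPZ_iPrE2 replicate 2 the change in EPZ_iPrE2 was 1.30 (adjusted p = 0.0842), without the libraries high in fibroblast genes it was 1.31 (adjusted p = 0.0575), and with the compared groups alone 1.41 (adjusted p = 0.137). Against E14_ESC, at 162.7, 218.0 and 228.0 CPM, it was 2.91 in EPZ_iPrE2 (adjusted p = 3.58e-05) and 2.63 in EPZ_iPrE1 (adjusted p = 9.87e-05). C57_PrESC had 936.8 and 1172.9 CPM, against 1120.9 and 652.3 CPM in C57_ESC. These ranges overlap, and the log2 change was 0.25 (SE 0.496, edgeR adjusted p = 0.687).

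Apom, which carries sphingosine-1-phosphate on high density particles, had 2.33 and 10.7 CPM in EPZ_iPrE2 and 10.9 and 2.11 CPM in EPZ_iPrE1, against 0.520 and 0.314 CPM in TG2A_ESC. Every EPZ library was above both TG2A_ESC libraries, and within each line 1 replicate was several times the other. The log2 change was 3.95 (SE 0.749, edgeR adjusted p = 0.000224) in EPZ_iPrE2 and 3.94 (SE 0.75, edgeR adjusted p = 0.00024) in EPZ_iPrE1. The high libraries, EPZ_iPrE2 replicate 2 and EPZ_iPrE1 replicate 1, are also those high in fibroblast genes. The C57_PrESC library with 2399.6 CPM of fibroblast genes had 1.45 CPM of Apom, and the other had 1.29 CPM. Without the libraries high in fibroblast genes the change was 2.48 in EPZ_iPrE2 (adjusted p = 0.000612) and 2.33 in EPZ_iPrE1 (adjusted p = 0.00136). Without 1 library alone it was 2.46 in EPZ_iPrE2 (replicate 2 left out) and 2.29 in EPZ_iPrE1 (replicate 1 left out), both still called. In C57 cells, 1.29 and 1.45 CPM in C57_PrESC stood above 0.477 and 0.505 CPM in C57_ESC, with a log2 change of 1.47 (SE 0.744, edgeR adjusted p = 0.0979).

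**Figure D2:**
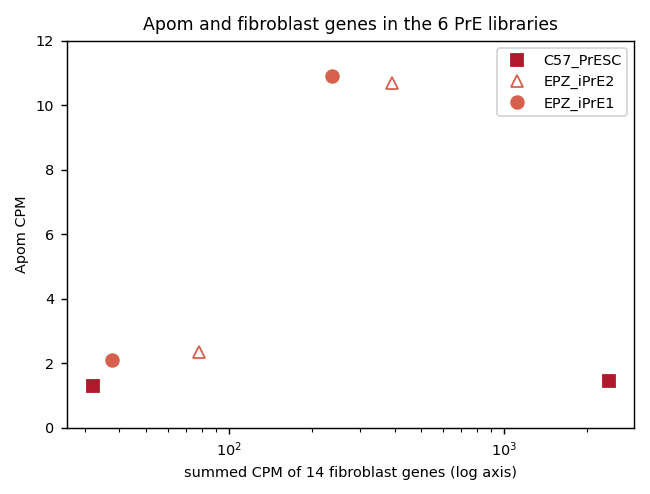
Apom CPM (vertical axis) against the summed CPM of 14 fibroblast genes (horizontal axis, log scale) in the 6 PrE libraries; each point is a library. The EPZ libraries with 236.8 and 390.6 CPM of fibroblast genes had 10.9 and 10.7 CPM of Apom, and the C57_PrESC library with 2399.6 CPM had 1.45 CPM.

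Apoa4, an intestinal and yolk sac apolipoprotein, was counted mainly in PrE libraries. It had 7 and 9 counts in EPZ_iPrE2 and 12 and 1 in EPZ_iPrE1, against none in TG2A_ESC, so that it was at least 6.86-fold higher in EPZ_iPrE2 and at least 6.42-fold higher in EPZ_iPrE1. Fitted without the count filter it was called in both, with edgeR adjusted p of 0.0131 and 0.0161. That fit often gave a smaller adjusted p than the filtered fit, so its calls count for less. For Trf in C57_PrESC the edgeR adjusted p was 3.75e-40 without the filter, against 3.99e-06 with it. Apoa4 had 0 and 5 counts in C57_PrESC, against none in C57_ESC. The neighbouring Apoa1, the main protein of high density particles, did not share this: it had 2 and 0 counts in EPZ_iPrE2, none in EPZ_iPrE1 and none in C57_PrESC. An antisense gene and a second annotated gene on the minus strand overlap Apoa4, and without the strand setting of the counting their reads cannot be told apart from its own. Ttr had 1 and 4 counts in EPZ_iPrE2, none in EPZ_iPrE1, and 0 and 4 in C57_PrESC. Afp had no count in any EPZ library and 0 and 2 in C57_PrESC, which allows up to 0.101 CPM in EPZ_iPrE2 and 0.116 CPM in EPZ_iPrE1 at 3 counts over the group. The 12 Apoa4 counts of EPZ_iPrE1 replicate 1 and the 9 of EPZ_iPrE2 replicate 2 lay in libraries high in fibroblast genes. So did 4 Ttr counts of EPZ_iPrE2 and every C57_PrESC count of Apoa4, Ttr and Afp. The fit without those libraries gave no value for Apoa4, and their part was not tested.

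**Figure D3:**
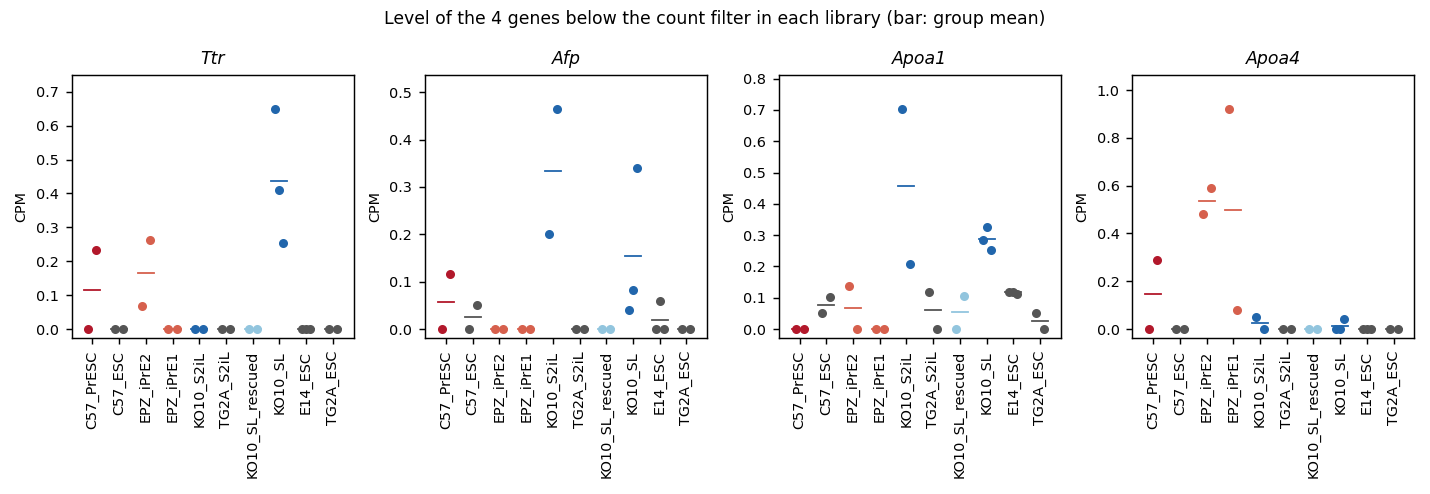
CPM of the 4 genes below the count filter (vertical axis) in each of the 22 libraries by group (horizontal axis), colours as for the tested genes; points are libraries and bars are group means. Ttr reaches 0.650 CPM in KO10_SL and is at 0 in all wild-type ESC libraries, and Apoa4 is highest in the EPZ-derived lines at up to 0.922 CPM.

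None of the 5 tested genes differed between EPZ_iPrE2 and EPZ_iPrE1 at an adjusted p below 0.05, where 3.91% of all genes did. None had an unadjusted p below 0.05 either, and DESeq2 called none. The log2 difference ran from -1.06 for Rbp4 (SE 1.31, 1 against 2 counts) to 0.90 for Apob (SE 0.894), and that of Apom was 0.01 (SE 0.621). With SEs of 0.894 for Apob, 1.31 for Rbp4 and 1.68 for Trf, a severalfold difference of these genes would not have been detectable. The SEs of Apoe and Apom were smaller, at 0.496 and 0.621.

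In ESCs without Ezh2 the retinol carrier and Apob were higher. Rbp4 and Apob rose in KO10_SL relative to E14_ESC, whereas they fell in the PrE lines relative to theirs, and both fell in KO10_SL_rescued relative to KO10_SL. The transthyretin gene was counted in KO10_SL and not in E14_ESC. Among the 5 tested genes 2 were higher and none lower, where 48.6% of all genes passed in either direction, 25.8% higher and 22.7% lower. The median log2 change of the 5 was 1.30, beside 0.067 over all genes. In KO10_SL_rescued against KO10_SL none was higher and 2 were lower, where 45% of all genes passed, 20.9% higher and 24.1% lower, and the median was -1.45, beside -0.106. These comparisons share the KO10_SL libraries, so their opposite signs are not independent. Against E14_ESC the rescued cells had none of the 5 called, where 0.108% of all genes passed, 0.0285% higher and 0.0798% lower. None of the 5 had an unadjusted p below 0.05 there, and DESeq2 called none, without a value for Apob. The fit of the compared groups alone and the fit without the count filter did each call a gene of the set. With the compared groups alone 189 of all genes were higher and 362 lower, against 5 and 14 in the main fit.

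Rbp4 had 5.97, 7.64 and 7.46 CPM in KO10_SL, against 1.5, 1.97 and 1.98 CPM in E14_ESC, and the groups did not overlap. The log2 change was 1.94 (SE 0.376, edgeR adjusted p = 0.000447), and 2.16 with TG2A_ESC as the control (adjusted p = 0.00178). KO10_SL_rescued had 1.89 and 2.04 CPM, which put it below every KO10_SL library, with a log2 change of -1.84 (SE 0.434, edgeR adjusted p = 0.00256). KO10_SL was the group with the highest Rbp4 of the series and stood apart from the next, KO10_S2iL at 1.97 ± 0.29 CPM (SD, n = 2).

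Apob had 3.90, 2.78 and 3.35 CPM in KO10_SL, against 1.44, 1.79 and 0.821 CPM in E14_ESC. The groups did not overlap, and the log2 change was 1.32 (SE 0.475, edgeR adjusted p = 0.0311). The call was lost without E14_ESC replicate 1 (1.37, adjusted p = 0.0668), E14_ESC replicate 3 (1.05, adjusted p = 0.126), KO10_SL replicate 1 (1.17, adjusted p = 0.0978) or KO10_SL replicate 3 (1.29, adjusted p = 0.0724), and with TG2A_ESC as the control (1.19, adjusted p = 0.115). KO10_SL_rescued had 0.887 and 1.02 CPM, all below KO10_SL, with a log2 change of -1.80 (SE 0.566, edgeR adjusted p = 0.0168). That call too was lost without KO10_SL_rescued replicate 1 (-1.68, adjusted p = 0.119) or replicate 2 (-1.93, adjusted p = 0.0811).

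Ttr, the partner of Rbp4 in plasma, was counted in every KO10_SL library, at 16, 10 and 6 counts, and in none of E14_ESC, TG2A_ESC, KO10_SL_rescued, KO10_S2iL or TG2A_S2iL. At 0.438 ± 0.199 CPM (SD, n = 3) it was at least 8.84-fold higher in KO10_SL than in E14_ESC and at least 5.39-fold lower in KO10_SL_rescued than in KO10_SL. The exact two-sided permutation test of 3 against 3 libraries gave p = 0.1, the smallest it allows. Fitted without the count filter, Ttr was called in both comparisons (edgeR adjusted p = 0.00261 and 0.019). As described for Apoa4, calls of that fit count for less. Apoa1 had 7, 8 and 6 counts in KO10_SL, against 2, 2 and 3 in E14_ESC, a ratio of 2.49 (95% counting interval 1.02 to 6.92) with an exact permutation p of 0.1. Afp had 1, 2 and 8 counts in KO10_SL, against 0, 1 and 0 in E14_ESC. The Afp ratio was 9.12 (1.32 to 392), the groups overlapped, and the exact permutation p was 0.2. Without the filter neither Apoa1 (adjusted p = 0.458) nor Afp (adjusted p = 0.246) passed. Trf, for comparison, had 703 counts in KO10_SL.

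Apom had 0.813, 1.19 and 1.61 CPM in KO10_SL, against 0.539, 0.478 and 0.448 CPM in E14_ESC. The groups did not overlap, and the log2 change of 1.30 (SE 0.599, edgeR adjusted p = 0.0843) did not pass. KO10_SL_rescued had 0.555 and 0.321 CPM, with a log2 change of -1.45 against KO10_SL (SE 0.702, edgeR adjusted p = 0.106). Fitted to the compared groups alone, both passed (adjusted p = 0.0112 and 0.021). Apoe had 119.3 and 126.2 CPM in KO10_SL_rescued and 240.3, 279.9 and 278.8 CPM in KO10_SL, against 162.7, 218.0 and 228.0 CPM in E14_ESC, so that every rescued library was below both other groups. Its log2 changes were 0.39 (SE 0.408, edgeR adjusted p = 0.448) for KO10_SL against E14_ESC and -1.12 (SE 0.473, edgeR adjusted p = 0.065) for KO10_SL_rescued against KO10_SL. With the compared groups alone these passed (adjusted p = 0.0128 and 8.12e-08). With TG2A_ESC as the control the Apoe change in KO10_SL turned to -1.11 (adjusted p = 0.0747). Trf had 10.2, 9.56 and 9.20 CPM in KO10_SL, against 7.91, 11.1 and 10.2 CPM in E14_ESC, with a log2 change of -0.01 (SE 0.42).

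**Figure D4:**
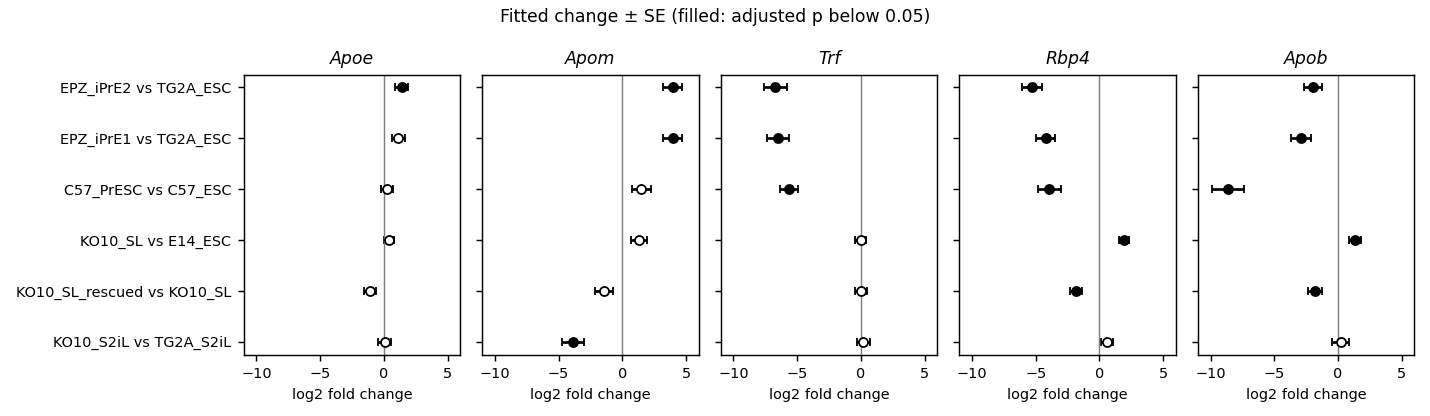
Fitted log2 fold change (horizontal axis, point ± SE) of the 5 tested genes in 6 comparisons (vertical axis, the first-named group over the second); filled points have an adjusted p below 0.05. Rbp4 and Apob are below 0 in the 3 PrE lines and above 0 in KO10_SL; the Apob value in C57_PrESC, at -8.62, is a fit to a group with no counts and is no measure of size.

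With 2i added, Apom was lower in knockout cells, and neither Rbp4 nor Apob passed. Among the 5 tested genes 1 was lower and none higher in KO10_S2iL relative to TG2A_S2iL, where 30% of all genes passed, 15.7% higher and 14.3% lower. Apom had 0.151 and 0.155 CPM in KO10_S2iL, against 2.28 and 2.45 CPM in TG2A_S2iL, with a log2 change of -3.89 (SE 0.846, edgeR adjusted p = 0.00279). KO10_S2iL was the lowest group of the series for Apom and rests on 6 counts. Rbp4 had 1.76 and 2.17 CPM in KO10_S2iL, against 1.14 and 1.46 CPM in TG2A_S2iL, with a log2 change of 0.59 (SE 0.478, edgeR adjusted p = 0.381). Apob had 0.956 and 0.827 CPM in KO10_S2iL, against 0.600 and 0.934 CPM in TG2A_S2iL, with a log2 change of 0.21 (SE 0.641). Trf had 17.2 and 17.9 CPM in KO10_S2iL, against 15.8 and 15.4 CPM in TG2A_S2iL, and Apoe had 435.2 and 431.2 CPM in KO10_S2iL, against 412.1 and 420.5 CPM in TG2A_S2iL. Their log2 changes were 0.17 (SE 0.509) and 0.06 (SE 0.497), neither past the test. Afp had 4 and 9 counts in KO10_S2iL, against none in TG2A_S2iL, at least 3.73-fold higher, and did not pass without the count filter (edgeR adjusted p = 0.102). Apoa1 had 14 and 4 counts in KO10_S2iL, against 2 and 0 in TG2A_S2iL, a ratio of 7.75 (1.86 to 68.9).

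The medium changed Apom in opposite directions in the TG2A wild-type cells and the knockout clone. The only wild-type libraries with 2i were of TG2A cells, so genotype and cell set cannot be told apart. TG2A_S2iL stood at 2.28 and 2.45 CPM, against 0.520 and 0.314 CPM in TG2A_ESC, a log2 change of 2.48 (SE 0.743, edgeR adjusted p = 0.0231). That was the 1 tested gene of the set called there, where 23.3% of all genes passed. KO10_S2iL stood at 0.151 and 0.155 CPM, against 0.813, 1.19 and 1.61 CPM in KO10_SL, a log2 change of -2.92 (SE 0.817, edgeR adjusted p = 0.0104). Rbp4 (-1.83, SE 0.433, edgeR adjusted p = 0.00341) and Apob (-1.90, SE 0.567, edgeR adjusted p = 0.016) fell there as well, which made 3 of the 5 lower, where 36.9% of all genes passed, 19.6% higher and 17.3% lower. Ttr was at least 5.76-fold lower in KO10_S2iL than in KO10_SL. The difference between the knockout change under 2i and that with LIF alone, taken against TG2A cells in both media, was -5.40 for Apom (SE 1.1, edgeR adjusted p = 0.0191). It was the 1 of 5 called, where 1.95% of all genes passed, and the value with E14_ESC as the LIF control was -5.19 (adjusted p = 0.00162). Without KO10_S2iL replicate 1 or 2, TG2A_S2iL replicate 1 or 2, or TG2A_ESC replicate 2 it stayed between -5.44 and -5.06 with an adjusted p of 0.0578 to 0.119. The difference for Rbp4 was -1.57 (SE 0.641, edgeR adjusted p = 0.221). The medium calls likewise rest on few libraries. For Apom in TG2A cells none of the 4 fits that leave out 1 library kept the call (adjusted p from 0.0629 to 0.153). In knockout cells, leaving out KO10_S2iL replicate 1 or replicate 2 ended the calls of Apom (adjusted p = 0.077 and 0.0754) and of Apob (adjusted p = 0.087 and 0.119), and replicate 1 that of Rbp4 (adjusted p = 0.0542).

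The wild-type sets with LIF differed in 1 of the 5 genes. Apoe was lower in E14_ESC than in TG2A_ESC by a log2 change of -1.5 (SE 0.449, edgeR adjusted p = 0.0224), where 24.3% of all genes passed. It rests on TG2A_ESC replicate 2, without which the change was 0.50 (adjusted p = 0.237). Without TG2A_ESC replicate 1 it was -2.29, and without E14_ESC replicate 1 or 2 its adjusted p was 0.0797 or 0.054. With the compared groups alone it was 0.0923. The other 4 differed by -0.20 to 0.22 on the log2 scale.

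Genes that act with the secreted proteins were taken from lists written with earlier results of these data known, and are given by their counts and median log2 change. The shares of all tested genes called higher and lower in these comparisons were 28.8% and 33.4% in EPZ_iPrE2, 27.9% and 32.2% in EPZ_iPrE1, 27.3% and 33.4% in C57_PrESC, and 25.8% and 22.7% in KO10_SL, and the counts below stand beside them. Of 15 tested regulators of endoderm, 10 rose and 1 fell in EPZ_iPrE2 and likewise in EPZ_iPrE1, 8 rose and 2 fell in C57_PrESC, and 8 rose and 3 fell in KO10_SL. Foxa2, a forkhead factor of endoderm, had log2 changes of 6.65 (SE 0.754) in EPZ_iPrE2, 6.51 (SE 0.752) in EPZ_iPrE1, 6.81 (SE 0.768) in C57_PrESC and 4.87 (SE 0.737) in KO10_SL. It had 0 to 0.848 CPM in C57_ESC and 0 to 0.479 CPM in E14_ESC, so the last 2 sizes depend on the control library. Nr5a2 went the other way, with means of 0.205 CPM in EPZ_iPrE2 against 83.4 in TG2A_ESC, and 0.0291 in C57_PrESC against 60 in C57_ESC. Hnf4a, a nuclear receptor that drives apolipoprotein genes in liver and visceral endoderm, rose by 5.69 (SE 0.644) in EPZ_iPrE2, 5.59 (SE 0.643) in EPZ_iPrE1 and 6.95 (SE 0.731) in C57_PrESC, and fell by 1.29 (SE 0.448, edgeR adjusted p = 0.0253) in KO10_SL, where Apob was higher. It had 2.12 to 3.33 CPM in KO10_SL, against 5.57 to 7.46 CPM in E14_ESC. TG2A_ESC, the other wild-type set with LIF, had 0.839 to 1.2 CPM of Hnf4a, below every KO10_SL library. The direction in KO10_SL therefore depends on the control set. In C57_ESC Hnf4a had 0 to 0.689 CPM, so its size in C57_PrESC depends on the control library. The median of the list was 4.21, 4.25, 2.14 and 2.56 in these 4 comparisons, beside all-gene medians of -0.109, -0.075, -0.091 and 0.067.

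Receptors that take up the carriers, 14 tested, gave 7 higher and 4 lower in EPZ_iPrE2, 6 and 4 in EPZ_iPrE1, 7 and 5 in C57_PrESC, and 5 and 1 in KO10_SL, with medians of 1.08, 0.53, 0.76 and 0.38, beside the same all-gene medians. In all, 11, 10, 12 and 6 of the 14 were called, where 62.2%, 60.1%, 60.6% and 48.6% of all genes were. Stra6, the receptor for Rbp4, rose by 6.73 (SE 0.44) in EPZ_iPrE2, 7.51 (SE 0.445) in EPZ_iPrE1, 6.95 (SE 0.418) in C57_PrESC and 2.94 (SE 0.394) in KO10_SL on the log2 scale, while Rbp4 itself fell in the 3 lines and rose in KO10_SL. Cubn and its partner Amn, which take up apolipoproteins and other ligands from the uterine fluid, rose by 5.98 (SE 1.24) and 6.37 (SE 0.444) in C57_PrESC. The C57_ESC libraries stood apart for Cubn, at 1.01 and 95.4 CPM, against which the C57_PrESC libraries had 1323.8 and 4746.6 CPM, so the size depends on the control library. In KO10_SL the pair rose by 4.93 (SE 1.05) and 4.14 (SE 0.408). Tfrc, the transferrin receptor, fell by 3.13 (SE 0.23) in EPZ_iPrE2, 3.24 (SE 0.232) in EPZ_iPrE1 and 5.37 (SE 0.257) in C57_PrESC, beside the fall of Trf, and had a log2 change of 0.16 (SE 0.171) in KO10_SL. In KO10_SL_rescued against KO10_SL, 1 of the list rose and 6 fell.

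Lipoprotein assembly and remodelling genes, 13 tested, gave 6 higher and 4 lower in EPZ_iPrE2, 6 and 3 in EPZ_iPrE1, 7 and 4 in C57_PrESC, and 4 and 1 in KO10_SL, with medians of 1.18, 0.33, 0.84 and 0.57. In all, 10, 9, 11 and 5 of the 13 were called, beside the same all-gene shares. Mttp, which loads lipid onto Apob, rose by 2.35 (SE 0.286) in EPZ_iPrE2, 0.69 (SE 0.284) in EPZ_iPrE1 and 3.25 (SE 0.298) in C57_PrESC, where no Apob was counted, and had a log2 change of -0.49 (SE 0.228, edgeR adjusted p = 0.0877) in KO10_SL. Lpl, the lipase that empties the particles, fell by 3.29 (SE 0.589) in EPZ_iPrE2, 1.32 (SE 0.503) in EPZ_iPrE1 and 1.69 (SE 0.561) in C57_PrESC, and rose by 1.75 (SE 0.379) in KO10_SL. The C57 libraries overlapped for Lpl, at 0.406 to 2.5 CPM in C57_PrESC and 2.01 to 7.67 CPM in C57_ESC. Only 4 of 16 other plasma protein genes passed the filter. They gave 3 higher and 1 lower in EPZ_iPrE2, 2 and 1 in EPZ_iPrE1, 2 and 2 in C57_PrESC, and 1 and 1 in KO10_SL, with medians of 2.55, 0.97, -2.42 and 1.52. Fgg, a fibrinogen chain, was lower in all 3 PrE lines, and Gc, the vitamin D binding protein, was higher in EPZ_iPrE2 and lower in C57_PrESC. The Gc rise, 1 of the 3 in EPZ_iPrE2, rests on 5 counts at 0 and 0.329 CPM, all in the replicate high in fibroblast genes. Of the others Ahsg, which encodes fetuin, rose in EPZ_iPrE2 (3.16, SE 0.536), EPZ_iPrE1 (3.12, SE 0.537), C57_PrESC (2.90, SE 0.582) and KO10_SL (1.97, SE 0.449). F2, prothrombin, rose by 1.93 (SE 0.496) in EPZ_iPrE2, 1.95 (SE 0.498) in EPZ_iPrE1 and 1.13 (SE 0.461) in C57_PrESC, and fell by 3.13 (SE 0.479) in KO10_SL. Other visceral endoderm genes, 11 tested, gave 6 higher and 4 lower in EPZ_iPrE2, 5 and 4 in EPZ_iPrE1, 6 and 3 in C57_PrESC, and 7 and 1 in KO10_SL, with medians of 1.54, 0.59, 1.24 and 2.03. Parietal endoderm genes, 11 tested, gave 9 and 0, 8 and 0, 9 and 2, and 10 and 0 in the same order, with medians of 3.99, 4.35, 3.97 and 2.61. The all-gene medians and shares for both lists are those given above.

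**Figure D5:**
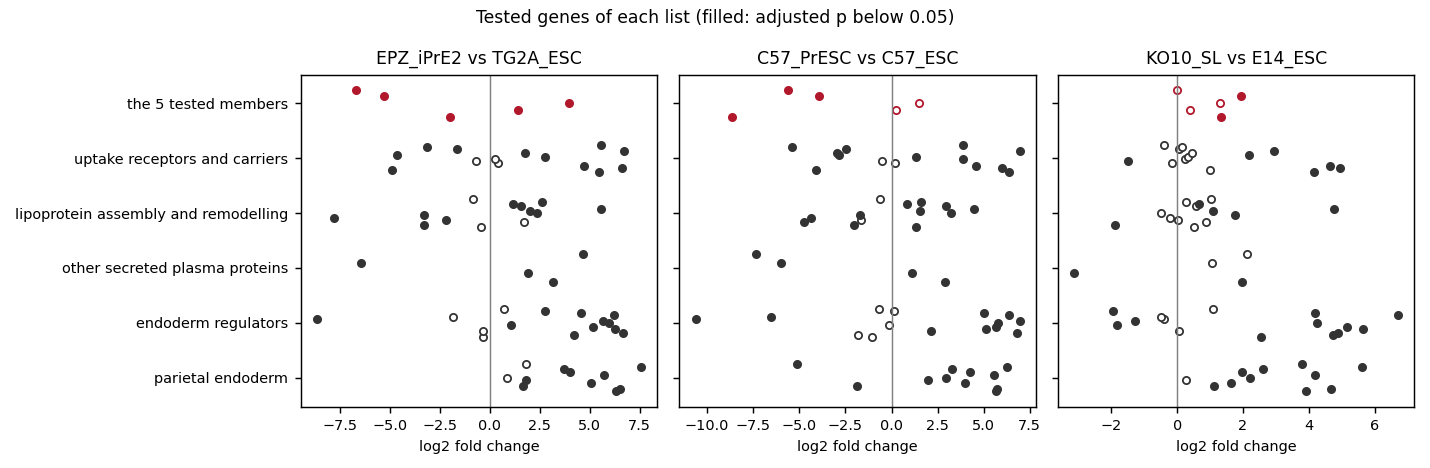
Log2 fold change (horizontal axis) of each tested gene of 6 lists (vertical axis) in 3 comparisons; filled points have an adjusted p below 0.05 and the secreted-protein genes are red. In EPZ_iPrE2 and C57_PrESC 3 of the 5 red points lie below 0 and are filled, while 10 and 8 of 15 endoderm regulators are filled above 0.

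Genomic neighbours were mostly silent: of 7 genes next to Afp, Apoa1, Apoa4 and Apoe, Apoc1 alone passed the filter. Apoc1, 3′ of Apoe on the same strand, rose by 2.15 (SE 0.398, edgeR adjusted p = 0.00018) in EPZ_iPrE2 and by 2.05 (SE 0.398, edgeR adjusted p = 0.000284) in EPZ_iPrE1, fell by 1.64 (SE 0.391, edgeR adjusted p = 0.00278) in KO10_SL_rescued relative to KO10_SL, and had a log2 change of 0.02 in C57_PrESC. On GRCm38 with GENCODE M21 the gene bodies lie at chr5:90490737-90508907 (Afp), chr9:46228580-46230466 (Apoa1), chr9:46240696-46243459 (Apoa4), chr12:7977648-8016835 (Apob), chr7:19696109-19699188 (Apoe), chr17:35128997-35132050 (Apom), chr19:38116629-38125281 (Rbp4), chr9:103204001-103230444 (Trf) and chr18:20665280-20674321 (Ttr). All are protein-coding, and Trf overlaps an annotated gene of the same strand over 26307 bases, so that its reads are uncertain. An antisense gene overlaps Afp over 9820 bases. Without the strand setting of the counting, the few Afp counts are uncertain too.

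Over the 22 libraries the genes fell into loose patterns, given as Pearson correlations of log2 CPM with no test, since libraries of a group share their cells. Trf, Rbp4 and Apob varied together (r = 0.85 for Trf and Rbp4, 0.79 for Trf and Apob, and 0.79 for Apob and Rbp4). Apoe ran against Rbp4 (r = -0.79). Among well-expressed genes, those most like Trf were Sfrp1 (r = 0.984) and Pdgfc (0.981), and most like Rbp4 were Sfrp5 (0.957) and Fam118b (0.953). Most like Apob were Arxes2 (0.929) and Nccrp1 (0.926), most like Apoe was Gnptg (0.924), and most like Apom were Ing2 (0.865) and Gls2 (0.854). Apoa4, with 36 counts in all and only 7 libraries above 0, was most like Egln1 (0.904) and Klhl2 (0.901). The nearest genes of Ttr (Txndc17, 0.815, and Manf, 0.805), Apoa1 (Magel2, 0.827, and Rac3, 0.807) and Afp (Lipg, 0.788, and Zbtb42, 0.781) rest on 28 to 56 counts per gene.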

How the data were processed

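RNA-seq of 22 mouse cell libraries was analysed from 1 table of 55367 gene symbols. Its values are estimated counts, which the authors deposited unscaled. Trimming with Trim Galore, alignment tool STAR 2.7.6a, build mm10 and DESeq2 are listed, without order, per the submitters' processing notes. Which tool counted the reads, and whether by strand, is not given in the sources used here. Per the labels the molecule is polyA RNA and the kit removes rRNA, so RNA selection is uncertain. The labels' genotype, spelled Eeh2, was read as Ezh2.

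Between 5.71 and 7.26% of symbols per library held fractional values, which were rounded. Counts were fitted in R 4.3.3 with edgeR 4.0.16: filterByExpr (17547 genes kept), TMM scaling and the quasi-likelihood test, each group having its own coefficient (12 residual degrees of freedom), with Benjamini-Hochberg adjustment over all tested genes and calls at an adjusted p below 0.05. CPM use the TMM library sizes, and folds against 0 use 3 counts over the group. DESeq2 1.42.0 was an alternative. The fit was tested on simulated data. Locations come from GENCODE M21 and promoters from RefSeq, both GRCm38.

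The members and lists were chosen with earlier results of these data known. All 9 members are named, up to 4 called genes per list by size of change, and the 2 genes most correlated with each member, of which 1 is not reported here. Human cells and chromatin profiles were not used here. Alternatives were other scalings, no filter, a fit of the compared groups only, the other wild-type set, a replicate block and leaving out each library. Replicate numbers were not taken as pairs.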

Additional observations from a re-analysis of the deposited data

Results flagged for a closer look

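A change of Apob differed between the derivations of PrE cells. The mean log2 change of the EPZ lines less the C57 change was 6.2 (edgeR interaction contrast, SE 1.69, adjusted p = 0.00948). Apob was detected in all 4 EPZ libraries, at 0.0687 to 0.658 CPM, and in neither C57_PrESC library. Without the libraries high in fibroblast genes the value was 4.38 (adjusted p = 0.282).

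The knockout change of Apom differed between media. The log2 change of KO10_S2iL against TG2A_S2iL less that of KO10_SL against TG2A_ESC was -5.4 (edgeR interaction contrast, SE 1.1, adjusted p = 0.0191). The group means were 0.153 CPM in KO10_S2iL and 2.37 CPM in TG2A_S2iL, and 1.20 CPM in KO10_SL and 0.417 CPM in TG2A_ESC (n = 2, 2, 3 and 2). The KO10_S2iL mean rests on 6 counts. Leaving out either KO10_S2iL library, either TG2A_S2iL library or TG2A_ESC replicate 2 ended the call, at adjusted p of 0.0578 to 0.119.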

How the results depend on the processing

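Of the 24 called changes of single genes, 12 kept their direction and call under every alternative run: Trf and Rbp4 in all 3 PrE lines, Apob in C57_PrESC, Apom in both EPZ lines and in KO10_S2iL against TG2A_S2iL, and Rbp4 in KO10_SL and in KO10_SL_rescued against KO10_SL. For C57_PrESC, the fit of the compared groups only gave no value for Rbp4 and kept Trf at an edgeR adjusted p of 0.0471. Over all alternatives the called changes gave 250 values on the same side, 36 that missed the threshold and 1 of opposite sign. The cause of these shifts was not tested. Depth limits Afp, Ttr, Apoa1 and Apoa4, which hold 28 to 56 counts each.

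Counts of the 5 genes called moved as follows. With only the compared groups fitted they were 0 for E14_ESC against TG2A_ESC, 0 for the EPZ less C57 difference, 3 for EPZ_iPrE2, 5 for KO10_S2iL against KO10_SL, 4 for KO10_SL against E14_ESC, 1 for the rescued cells against E14_ESC and 4 against KO10_SL. With no filter, where all 9 genes enter, they were 3 for the EPZ less C57 difference, 2 for the knockout by medium difference, 6 for KO10_S2iL against KO10_SL, 5 for KO10_SL, 1 and 5 for the rescued cells against E14_ESC and KO10_SL, and 2 for TG2A_S2iL against TG2A_ESC. With the other wild-type set as control they were 2 for the EPZ less C57 difference, 1 for KO10_SL and 1 for the rescued cells. Without the libraries high in fibroblast genes (chosen after seeing the data) the count was 0 for the EPZ less C57 difference.

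Leaving out 1 library gave ranges of 0 to 1 for E14_ESC against TG2A_ESC, 1 to 2 for the EPZ less C57 difference, 0 to 2 for the knockout by medium difference, 0 to 3 for KO10_S2iL against KO10_SL, 1 to 2 for KO10_SL, 1 to 2 for KO10_SL_rescued against KO10_SL and 0 to 1 for TG2A_S2iL against TG2A_ESC.

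Same-numbered replicates deviated with correlations of 0.00 to 0.04 for KO10_SL and E14_ESC, 0.25 for the C57 pair and -0.28 for the EPZ lines. A replicate block ended the Apom call of the knockout by medium difference (-5.28, adjusted p = 0.0531, 0 genes called), gave 0.03 for Apob in E14_ESC against TG2A_ESC and changed no other call of the 5 genes. Crossing the numbers of the EPZ lines, also chosen after seeing the data, gave 630 called genes against 582 with the uncrossed replicate block.

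Changes of single genes that turned sign (log2) were these, none of them past the threshold in the fit reported except Apoe in E14_ESC against TG2A_ESC. With the other wild-type set Apoe gave -1.11 in KO10_SL, 1.04 in TG2A_S2iL and -0.33 in the knockout by medium difference, and Apom gave 0.06 in the rescued cells. With upper quartile scaling Apom gave -0.04 between the EPZ lines and Trf 0.05 in KO10_SL, and with no filter -0.01 and 0.02. With the compared groups only, Apom gave -0.02 between the EPZ lines and Trf 0.02 in the rescued cells against KO10_SL. Without the libraries high in fibroblast genes Apoe gave -0.27 in C57_PrESC, Apob -0.16 between the EPZ lines, and Rbp4 0.78 and Trf 1.34 in the EPZ less C57 difference.

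Ranges over fits without 1 library that cross 0 were, for E14_ESC against TG2A_ESC, -0.63 to 0.68 (Apob), -2.29 to 0.50 (Apoe), -0.09 to 0.64 (Apom) and -0.26 to 0.96 (Rbp4). For EPZ_iPrE2 against EPZ_iPrE1 they were -1.41 to 2.14 (Apob), -1.48 to 1.63 (Apom), -3.65 to 2.60 (Rbp4) and -4.20 to 4.0 (Trf). For the EPZ less C57 difference they were -2.68 to 1.65 (Rbp4) and -3.10 to 4.81 (Trf), and for C57_PrESC -0.07 to 0.72 (Apoe). For the rescued cells against E14_ESC they were -0.59 to 0.18 (Apom), -0.01 to 0.18 (Rbp4) and -0.16 to 0.08 (Trf), and against KO10_SL -0.05 to 0.06 (Trf). For KO10_SL they were -0.14 to 0.09 (Trf), for KO10_S2iL against TG2A_S2iL -0.09 to 0.55 (Apob), for TG2A_S2iL against TG2A_ESC -1.26 to 1.52 (Apoe) and -0.75 to 0.47 (Rbp4), and for the knockout by medium difference -0.79 to 2.00 (Apoe).

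Over all genes, the counts moved to 5383 against 10642 called in C57_PrESC, 3041 against 6167 for the EPZ less C57 difference, 28 against 686 for EPZ_iPrE2 against EPZ_iPrE1, 10037 against 6482 for KO10_S2iL against KO10_SL and 9607 against 5263 for KO10_S2iL against TG2A_S2iL with the compared groups alone. Without TG2A_ESC replicate 2 the count was 1676 against 4270 for E14_ESC against TG2A_ESC. With the other wild-type set they came to 4863 against 8524 for KO10_SL, 3798 against 19 for the rescued cells and 4557 against 343 for the knockout by medium difference, which ran from 44 to 386 over fits without 1 library. Under upper quartile scaling the all-gene median log2 change was -0.283 in EPZ_iPrE2, -0.204 in EPZ_iPrE1 and -0.269 in C57_PrESC, against -0.109, -0.075 and -0.091. RLE scaling turned the knockout by medium split to 186 higher and 140 lower, against 147 and 196.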
